A study of Mus musculus with 4 samples.

Results

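The 9 genes described here encode inflammatory and apoptotic caspases (Casp1, Casp4, Casp8), inhibitors of apoptosis or IAPs (Birc2, Birc3, Xiap) and other parts of the inflammasome pathway (Nlrp3, Pycard, Gsdmd). They were taken by gene symbol from the 22558 genes of the deposited count table, and all 9 were among the 11711 genes with counts high enough to be tested. RNA had been sequenced from activated group 2 innate lymphoid cells (ILC2s), lymphocytes without antigen receptors, sorted from mouse lung as CD45+ cells that were ST2+ and CD127+ and lacked the lineage markers, which included CD11b, CD11c and Gr-1. The 4 libraries were 2 from C57BL/6 wildtype mice (WT) and 2 from ICAM-1 KO mice on the C57BL/6 background, all aged 6 weeks and all given 3 intranasal doses of 0.5 µg rm-IL33. No unchallenged group was analysed here. Each library was a pool of 4 mice. The ICAM-1 KO is carried in all cells of the mouse, not in ILC2s alone, and by its strain name the allele was made in stem cells of another strain and bred onto this background. DNA around Icam1 from that strain can remain in such mice, which was not tested here.

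Caspases are proteases that act in 2 kinds of cell death. In apoptosis, caspase-8 is activated at death receptors and caspase-9 at the mitochondrial apoptosome, and both cleave the executioner caspases. In pyroptosis, a sensor such as NLRP3 gathers the adaptor ASC, encoded by Pycard, and activates caspase-1, while caspase-11, encoded in the mouse by Casp4, is activated by cytosolic lipopolysaccharide. Both cleave gasdermin D, encoded by Gsdmd, which forms pores in the plasma membrane, and caspase-1 also matures IL-1β and IL-18. The IAPs XIAP, cIAP1 (Birc2) and cIAP2 (Birc3) restrain these routes, XIAP by binding caspases and the cIAPs as ubiquitin ligases of TNF receptor complexes. ILC2s themselves are known as sources of type 2 cytokines rather than as a main site of inflammasome activity.

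The libraries held 24796148 to 28782471 counts on genes, and values below are the authors' normalized counts, the count plus 1 scaled to the same upper quartile in each library. Icam1 RNA was not lower in the libraries from ICAM-1 KO mice (104 ± 8.77, SD, n = 2) than in WT (84.2 ± 1.32, n = 2) (adjusted p = 0.0745), so the former are named KO-labelled libraries. An RNA count over the whole gene does not measure the protein. Of the sorted receptors' genes, Il1rl1 (ST2) had 626 to 774 and Il7r (CD127) 250 to 304 in every library. Many marker genes of other lung cells were higher in the KO-labelled libraries, although not all. The paper reports a high purity for the sorted samples, and the share of RNA from other cells was not tested here. Adjusted p-values here and below are those of edgeR's quasi-likelihood fit unless another tool is named, adjusted over the 11711 genes tested by the Benjamini-Hochberg method, and a gene is said to pass at an adjusted p under 0.05. By this rule 12 of 14 macrophage and monocyte markers tested, 6 of 8 neutrophil markers, 4 of 8 alveolar and airway epithelium markers, all 10 endothelium markers, 5 of 8 T cell markers and 4 of 6 B cell markers passed, each higher. Of 7 eosinophil, basophil and mast cell markers tested, 2 were higher (Ccr3 and Cma1) and 2 lower (Epx and Prg2). Epx had raw counts of 1027 and 739 in WT and 0 in each KO-labelled library, and Prg2 1583 and 1041 against 33 and 118. Of the 12 genes listed as ILC2 markers, 2 were higher (Klrg1 and Ptprc, log2 fold changes 0.41 and 0.39) and 3 lower (Il13, Il5 and Il2ra, log2 fold changes -1.45, -0.76 and -0.51). Ptprc encodes CD45, which other leukocytes also carry, so it does not tell ILC2s from them. No listed marker was at 0 in all 4 libraries. In such bulk samples, fewer cells of a type and less RNA per cell cannot be told apart.

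Of the 9 members, 4 lie on chromosome 9, the chromosome of Icam1. Casp1 (ENSMUSG00000025888, mm10 chr9:5298517-5307265, plus strand) ends 1562 bases before Casp4 (ENSMUSG00000033538, chr9:5308828-5336783, plus strand), and Birc2 (ENSMUSG00000057367, chr9:7818227-7837064, minus strand) lies 11634 bases from Birc3 (ENSMUSG00000032000, chr9:7848699-7873186, minus strand). The stretches before Casp1 and Casp4 are shown because these neighbours differ in how far they stood below WT. Whether the stretches bear on that difference was not tested. They are RefSeq promoter windows of the reference genome GRCm38.p6 on the plus strand, cut where the gene model begins, with matches to the NF-kB consensus in capitals. Whether the ICAM-1 KO mice carry the same bases was not tested.
Casp1 chr9:5298267-5298516: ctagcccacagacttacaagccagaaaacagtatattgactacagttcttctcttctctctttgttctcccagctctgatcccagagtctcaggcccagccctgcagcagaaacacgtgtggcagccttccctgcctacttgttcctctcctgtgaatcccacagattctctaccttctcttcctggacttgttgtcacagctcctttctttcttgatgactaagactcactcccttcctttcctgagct
Casp4 chr9:5308599-5308827: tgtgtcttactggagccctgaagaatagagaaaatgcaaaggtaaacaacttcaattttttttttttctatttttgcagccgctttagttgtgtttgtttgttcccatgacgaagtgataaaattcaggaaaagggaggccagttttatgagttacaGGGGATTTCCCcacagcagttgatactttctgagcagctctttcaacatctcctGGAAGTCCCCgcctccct

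The Casp4 stretch held 3 matches to the 10-letter NF-kB consensus. A pair of them overlap, at -93 to -84 and -92 to -83 from the RefSeq start site, and the third lies at -39 to -30. The Casp1 stretch held no match. Both strands of the 250 bases before each start site were searched in the same way for the interferon motif GAS (TTCNNNGAA), the interferon motif ISRE (GAAA, any 2 bases, GAAA) and the AP-1 motif TGANTCA. None was found in any window of the members. Entries were found for 8 of the 9 members, all but Gsdmd, in 13 windows. The windows of Casp8 and Xiap lay wholly inside the gene model, as did a window each of Birc2 and Nlrp3. The bases before the gene models of Casp8 and Xiap were therefore not searched. Besides the 2 windows of Casp4, which cover the same matches, 1 window of Nlrp3 held an NF-kB match. Over all 32851 windows of the table, 7.25% held an NF-kB match, 7.02% a GAS match, 2.98% an ISRE match and 6.75% an AP-1 match. A match is a run of letters and was not tested as a binding site.

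Birc2 and Birc3 are neighbouring copies of each other, and the longest run of bases that their transcripts share exactly is shown because reads wholly inside it fit both genes equally. It covers 114 bases, all of them coding and within 1 exon of each gene (chr9:7821098-7821211 in Birc2 and chr9:7854491-7854604 in Birc3, minus strand).
Birc2 and Birc3: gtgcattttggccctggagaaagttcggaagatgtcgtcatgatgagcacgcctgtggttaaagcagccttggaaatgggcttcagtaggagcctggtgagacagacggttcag

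The deposited counts of Birc2 and Birc3 were not whole numbers, lying up to 0.46 and 0.49 from a whole count. Casp1 and Casp4 shared no run longer than 12 bases, and their counts lay within 0.001 of whole numbers. Those of Casp8 and Pycard lay up to 0.49 and 0.44 from a whole count, and Gm37760 overlaps Casp8 on the same strand and Gm45205 overlaps Pycard on the other strand. How many reads these genes share was not tested, and the counts of both members are uncertain.

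The members were proposed with the difference between these libraries known, so their fold changes are given as a description and without a test. Casp4 stood far below WT, Birc2 well above it, and the other 7 members differed by less than 1.5-fold. The groups did not overlap for 7 of the 9 members, 3 higher and 4 lower in the KO-labelled libraries, where 59.5% of all genes tested did not overlap (28.3% higher and 31.3% lower). In the fit over all genes, which is no test of the members, Casp4 alone was called, on the lower side. A call needed both an adjusted p under 0.05 and a 2-fold change. Of all genes tested, 5.47% were called (4.94% higher and 0.538% lower). With no limit on the fold, Birc2 also passed, on the higher side, as did 8.8% of all genes. The members were chosen on this contrast, so nothing is read from these counts. The median log2 fold change of the 9 members was -0.10, against 0.01 over all genes tested.

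**Figure D1:**
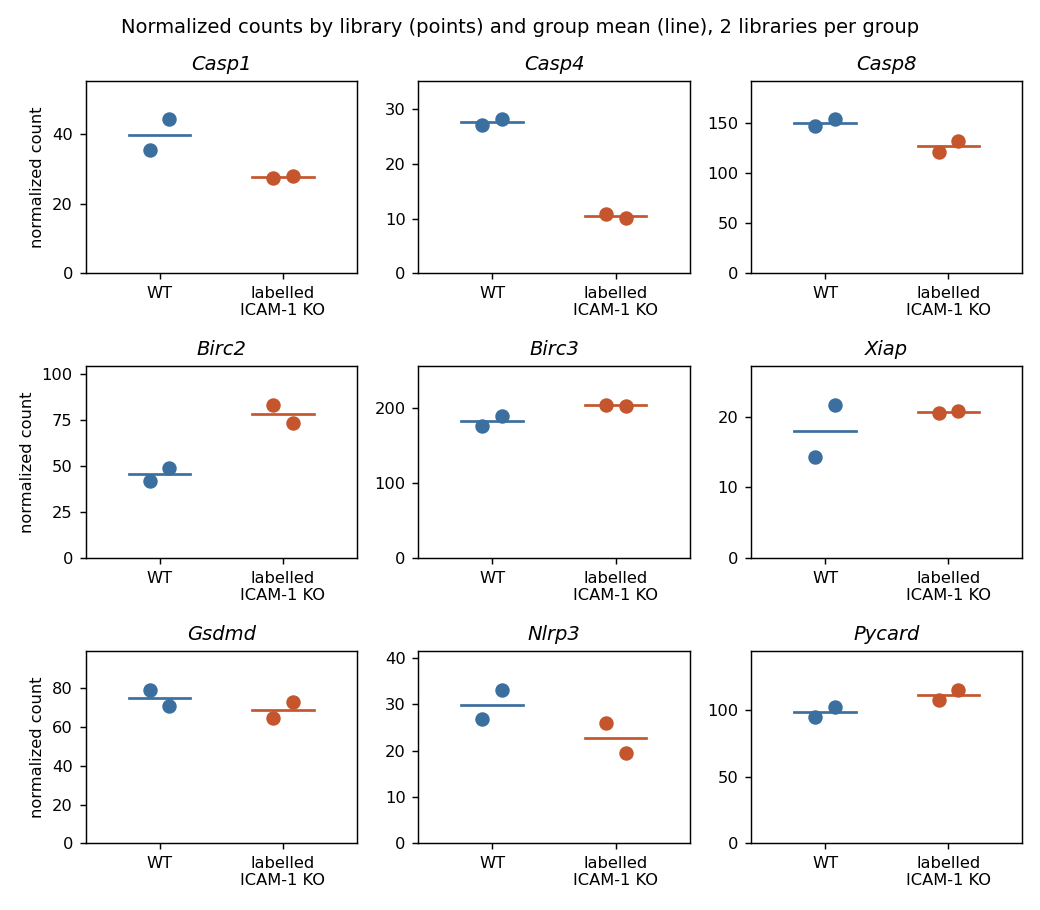
Normalized counts of the 9 members in each library (points) with the mean of the 2 libraries per group (lines), WT in blue and KO-labelled libraries in orange, each panel starting at 0. Casp4 and Birc2 show the widest gaps between groups, whereas the points of Xiap and Gsdmd overlap.

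Among the inflammasome genes, the sensor and the adaptor differed little from WT and in opposite directions. Nlrp3 (chr11:59541568-59566956) had normalized counts of 26.8 and 33.2 in WT and 26 and 19.6 in the KO-labelled libraries. The nearest libraries of the groups, at 26.8 and 26, almost touched, and the fitted log2 fold change was -0.38 (standard error, SE, 0.195). Pycard (chr7:127989708-127993867) had 94.9 and 102 in WT and 108 and 115 in the KO-labelled libraries, a log2 fold change of 0.20 (SE 0.102). The gap between its groups was about as small as the gap within each of them.

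The inflammatory caspases were both lower in the KO-labelled libraries, by unequal amounts. Casp4 had raw counts of 821 and 888 (WT) against 312 and 317 (KO-labelled). Its normalized counts were 27.1 and 28.2 against 10.9 and 10.1, so that the libraries of each group lay close together and the groups far apart. The mean was 27.6 ± 0.717 (SD, n = 2) in WT and 10.5 ± 0.518 (n = 2) in the KO-labelled libraries, 2.59-fold lower on the fitted scale (log2 fold change -1.37, SE 0.192). Leaving out single libraries gave Casp4 a log2 fold change of -1.41 to -1.33. Some strains whose stem cells were used for older knockouts are known to lack functional caspase-11 through a mutation in Casp4, and which Casp4 allele these animals carried was not tested here.

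Casp1, whose protease matures IL-1β, had raw counts of 1072 and 1395 (WT) against 790 and 875 (KO-labelled). Its normalized counts were 35.4 and 44.2 against 27.5 and 27.9. Most of the spread was in WT, and the log2 fold change was -0.50 (SE 0.161). Without WT replicate 2 it was -0.33. The ratio of Casp4 to Casp1, each per kb of exon, was 0.309 and 0.257 in WT and 0.16 and 0.146 in the KO-labelled libraries, lower in both of the latter than in either WT library. Gsdmd (chr15:75862327-75867408), which encodes their shared substrate, had normalized counts of 79.3 and 70.9 in WT and 64.5 and 72.8 in the KO-labelled libraries (log2 fold change -0.10, SE 0.121). Its groups overlapped.

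Casp8 (chr1:58795374-58847503) encodes the initiator of death receptor apoptosis. Its normalized counts were 147 and 154 in WT and 122 and 133 in the KO-labelled libraries, a small gap with a log2 fold change of -0.22 (SE 0.0968).

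The 3 IAP genes stood at unequal distances from WT. Birc2 had raw counts of 1273 and 1553 (WT) against 2403 and 2311 (KO-labelled). Its normalized counts were 42.1 and 49.2 against 83.4 and 73.6, with both KO-labelled libraries far above both WT libraries. The mean was 45.6 ± 5.06 (SD, n = 2) in WT and 78.5 ± 6.92 (n = 2) in the KO-labelled libraries, 1.75-fold higher on the fitted scale (log2 fold change 0.81, SE 0.128), or a log2 fold change of 0.70 to 0.93 when single libraries were left out.

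Birc3, the neighbour and copy of Birc2, was much closer between groups. Its normalized counts were 176 and 190 in WT and 205 and 203 in the KO-labelled libraries, a log2 fold change of 0.18 (SE 0.088). The ratio of Birc2 to Birc3 per kb of exon was 0.261 and 0.284 in WT and 0.445 and 0.397 in the KO-labelled libraries. Reads of the shared 114 bases can be placed on either gene, and their part in this ratio was not tested. Xiap (chrX:42059679-42109656) had 14.3 and 21.7 in WT and 20.5 and 20.8 in the KO-labelled libraries. Its groups overlapped, with a log2 fold change of 0.22 (SE 0.229) that was 0.56 without WT replicate 2 and -0.05 without WT replicate 1.

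Levels can be compared between genes only per length, here as the normalized count per kb of the union of a gene's exons. In WT, Casp8 was the highest at 52.1 ± 1.59 (SD, n = 2) per kb, followed by Birc3 at 36.5 ± 1.87 and Gsdmd at 31.6 ± 2.51. Casp1 and Pycard came next, at 26.6 ± 4.15 and 26 ± 1.41 per kb, and their libraries overlapped. Birc2 stood at 9.97 ± 1.1 per kb, Casp4 at 7.45 ± 0.193 and Nlrp3 at 7.39 ± 1.11, the last pair overlapping, and Xiap was the lowest at 1.9 ± 0.555 per kb.

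In the KO-labelled libraries, Casp8 (43.9 ± 2.72 per kb, SD, n = 2) and Birc3 (40.7 ± 0.269) again led and Xiap (2.18 ± 0.0219) was again last. Casp1 stood just above Birc2, at 18.5 ± 0.214 against 17.1 ± 1.51 per kb, and Casp4 came below Nlrp3, at 2.83 ± 0.14 against 5.61 ± 1.12. Pycard and Gsdmd overlapped there. With the longest transcript as length in place of the exon union, Birc3 came above Casp8 in WT (62.9 against 58.3 per kb) and Casp4 above Birc2 (14.5 against 13.7), so these orders depend on the gene model. In the KO-labelled libraries the same change put Birc3 above Casp8 (70.1 against 49.2 per kb) and Birc2 above Casp1 (23.6 against 18.5), and brought Casp4 close to Nlrp3 (5.52 against 5.66).

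**Figure D2:**
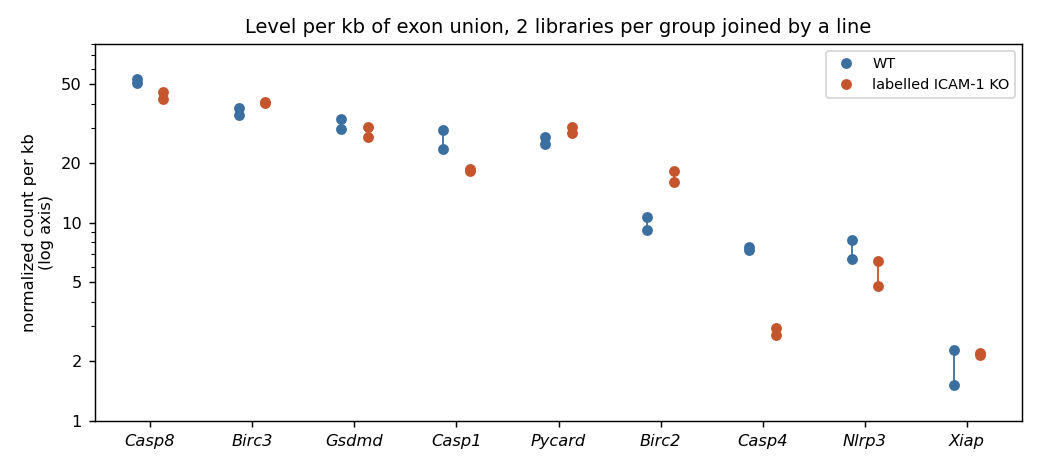
Normalized count per kb of exon union on a log axis for the 9 members, ordered by their WT mean, with the 2 libraries of each group joined by a line (WT in blue, KO-labelled libraries in orange). Casp8 and Birc3 are the highest and Xiap the lowest in both groups, and the mean of Casp4 is 7.45 per kb in WT and 2.83 per kb in the KO-labelled libraries.

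Other genes of the same pathways were taken from lists of 65 genes, of which 61 were in the count table and 51 could be tested. Of these, 6 passed as higher and 1 as lower. Over all genes tested the share was 13.8% (8.8% higher and 4.97% lower). The median log2 fold change of the 51 genes was -0.04.

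Of the 3 other caspase genes tested, 0 passed with edgeR or with DESeq2, and 0 had an unadjusted p under 0.05. Casp2 had normalized counts of 40.5 and 50.9 in WT and 42.2 and 32 in the KO-labelled libraries, and its groups overlapped (log2 fold change -0.28, adjusted p = 0.32). Casp6, an executioner of apoptosis, had 31.1 and 29.9 in WT and 26.6 and 25.7 in the KO-labelled libraries, a small gap (log2 fold change -0.20, adjusted p = 0.427). Casp9, the initiator at the apoptosome, had 14.2 and 17 in WT and 18.6 and 10.9 in the KO-labelled libraries, the widest spread of the 3 (log2 fold change -0.07, adjusted p = 0.894). The median log2 fold change of the list was -0.20. Casp12, which lies beside Casp4, had raw counts of 8 and 14 (WT) against 39 and 17 (KO-labelled) and was too low to be tested.

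Of the 8 other IAP genes and IAP antagonists tested, 0 passed with edgeR, although 3 (Birc5, Htra2 and Xaf1) had an unadjusted p under 0.05, and Birc5 passed with DESeq2. Birc5, which encodes the mitotic protein survivin, had 164 and 204 normalized counts in WT and 149 and 137 in the KO-labelled libraries (log2 fold change -0.34, adjusted p = 0.086 from edgeR and 0.034 from DESeq2). Htra2, a mitochondrial protease that binds IAPs, had 113 and 102 against 81.5 and 89.6 (log2 fold change -0.30, adjusted p = 0.0978 from edgeR). The 3 Naip genes tested, close copies whose reads can be split, did not pass.

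Of the 7 other inflammasome sensors and partners tested, 2 passed as higher. Mefv, which encodes the sensor pyrin, had raw counts of 67 and 28 (WT) against 133 and 197 (KO-labelled) (log2 fold change 1.86, SE 0.479, adjusted p = 0.0358 by edgeR). Txnip, which encodes a thioredoxin-binding protein linked to NLRP3, had normalized counts of 74.2 and 65.3 in WT and 87.2 and 104 in the KO-labelled libraries (log2 fold change 0.48, adjusted p = 0.0381). The most abundant genes of this list were Nek7, a kinase that binds NLRP3, and Nlrc3, which did not pass, with log2 fold changes of 0.12 and 0.23 and edgeR adjusted p-values of 0.419 and 0.182. Mefv and Txnip no longer passed when WT replicate 1, WT replicate 2 or ICAM-1 KO replicate 2 was left out, with adjusted p values of 0.0501, 0.16 and 0.0972 for Mefv and 0.0726, 0.167 and 0.187 for Txnip. The log2 fold change of Mefv was 2.65 without WT replicate 1 and 1.33 without WT replicate 2. Other genes of the list were too low to be tested. Nlrc4 had raw counts of 10 and 28 (WT) against 121 and 82 (KO-labelled), and Nlrp10 had 2 and 0 against 31 and 27. Nlrp12 had counts in ICAM-1 KO replicate 2 only, and the groups of Nlrp1a, Nlrp1b and Card9 overlapped.

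Of the 6 gasdermin, IL-1 family and lytic effector genes tested, 2 rose. Il1b, the substrate of caspase-1, had normalized counts of 64.6 and 68.6 in WT and 118 and 121 in the KO-labelled libraries. The groups lay far apart (log2 fold change 0.87, SE 0.102, adjusted p = 0.00149 by edgeR), while Casp1 stood below WT in the same libraries, and the antisense gene Il1bos overlaps Il1b. Ninj1, which encodes a protein of plasma membrane rupture, had 37.7 and 35.7 in WT and 47.3 and 53.6 in the KO-labelled libraries (log2 fold change 0.49, adjusted p = 0.0452). Panx1, a channel gene, did not pass with edgeR (log2 fold change 0.41, adjusted p = 0.0609) but did with DESeq2 (adjusted p = 0.0475). For Ninj1 the adjusted p was 0.106 without WT replicate 1, 0.151 without WT replicate 2 and 0.23 without ICAM-1 KO replicate 2.

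The levels of Il1b and Mefv, which myeloid cells express, stood beside higher myeloid markers, although the sort took cells without CD11b, CD11c and Gr-1. The summed normalized counts of the 14 macrophage and monocyte markers were 578 and 815 in WT and 1774 and 2456 in the KO-labelled libraries, and 12 of the 14 tested passed. Most of these sums came from Chil3 (211 and 423 in WT, 1052 and 1423 in the KO-labelled libraries) and Lyz2 (169 and 172 against 344 and 577). The paper cites Chil3 as also expressed by a subset of ILC2s. The summed normalized counts of the 10 neutrophil markers were 84.1 and 88.8 against 214 and 168, with Camp at 0 counts in both WT libraries and Ly6g at 0 and 13 counts in WT and 14 and 1 in the KO-labelled libraries. Their part in the rise of Il1b and Mefv was not tested.

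Of the 18 death receptor and TNF receptor complex genes, 2 rose. Tnfrsf1a, the receptor TNFR1 whose complexes hold the cIAPs, had raw counts of 261 in each WT library against 547 and 602 in the KO-labelled libraries (log2 fold change 1.20, SE 0.218, adjusted p = 0.00989 by edgeR). Cyld, a deubiquitinase of these complexes, rose from normalized counts of 97 and 91.5 to 133 and 115 (log2 fold change 0.43, adjusted p = 0.0319). Tnfaip3 and Traf1, the most abundant of the list at means of 1282 ± 9.02 and 530 ± 23.4 normalized counts in WT (SD, n = 2), did not pass, with log2 fold changes of -0.05 and 0.08 and edgeR adjusted p-values of 0.702 and 0.607. The direct partners of caspase-8, Fadd (-0.44), Cflar (0.10) and Ripk1 (0.14), had log2 fold changes with adjusted p values of 0.328 to 0.636. For Cyld the adjusted p was 0.0797 without WT replicate 1, 0.129 without WT replicate 2 and 0.157 without ICAM-1 KO replicate 1. Endothelial cells are among the cells that express Tnfrsf1a, and they lack CD45, on which the sort was gated. Many macrophage, neutrophil and epithelium markers were also higher in the KO-labelled libraries, as given above. The summed normalized counts of the 10 endothelium markers were 192 and 186 in WT and 491 and 514 in the KO-labelled libraries, none at 0 in all libraries, and their part in the rise of Tnfrsf1a was not tested.

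Of the 9 apoptosome genes and caspase substrates tested, 1 fell. Cycs, which encodes cytochrome c, had normalized counts of 336 and 354 in WT and 218 and 249 in the KO-labelled libraries (log2 fold change -0.53, SE 0.0967, adjusted p = 0.0098 by edgeR). Without WT replicate 2 its adjusted p was 0.0595. Apaf1, which binds cytochrome c in the apoptosome, had 113 and 104 in WT and 116 and 94.5 in the KO-labelled libraries (log2 fold change -0.02, adjusted p = 0.923). Lmnb1, a caspase substrate and the most abundant gene of the list after Cycs, had a log2 fold change of -0.04 (adjusted p = 0.764).

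**Figure D3:**
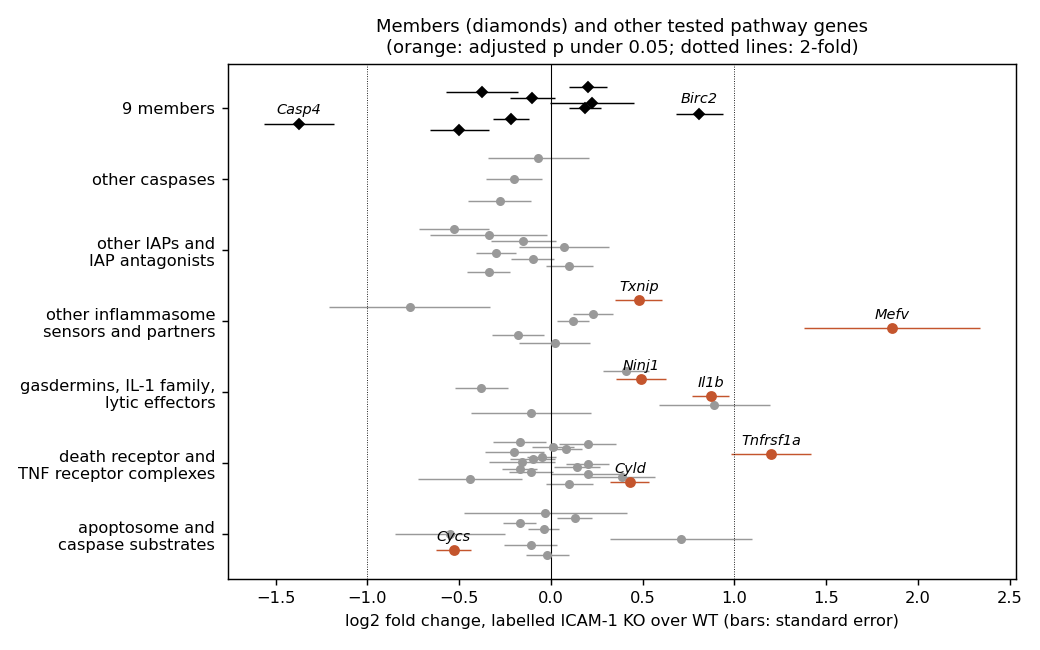
Log2 fold change (labelled ICAM-1 KO over WT) with its SE for the 9 members (black diamonds, no test) and the 51 other pathway genes tested, grouped by list, in orange where the adjusted p was under 0.05. Most genes lie within the dotted 2-fold lines, and Casp4, Mefv and Tnfrsf1a lie beyond them.

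The members on chromosome 9 were set beside their neighbours and the targeted gene. Casp1 and Casp4 start 15.7 Mb from Icam1, and Birc2 and Birc3 start 13.2 Mb from it on the same side. Of the 145 genes tested within 20 Mb of Icam1, these members included, 13.1% had an adjusted p under 0.05, against 17.7% of the 497 genes farther away on chromosome 9 and 13.6% of the 11068 genes of other chromosomes. Groups that did not overlap made up 65.5%, 61% and 59.4%, and the median absolute log2 fold change was 0.24, 0.26 and 0.25. By distance, 13.1% of 61 genes within 5 Mb, 3.85% of 26 genes at 5 to 10 Mb and 17.2% of 58 genes at 10 to 20 Mb had an adjusted p under 0.05. Farther out the share was 21.7% of 138 genes at 20 to 40 Mb and 16.2% of 359 genes beyond 40 Mb. The genes at 10 to 20 Mb include Casp1, Casp4, Birc2 and Birc3, chosen on this contrast, and Casp4 and Birc2 add to the share there.

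Around Casp4, the 4 genes tested within 1 Mb besides Casp1 were Gm7390, Msantd4, Kbtbd3 and Aasdhppt. Their log2 fold changes were -0.25, 0.24, 0.03 and -0.04, with adjusted p values of 0.658 to 0.95 by edgeR. Around Birc3, Tmem123, the next gene tested after Birc2 at a gap of 54.4 kb, rose from normalized counts of 238 and 291 to 443 and 473. Its log2 fold change of 0.82 (SE 0.109, adjusted p = 0.00276) lay beside the 0.81 of Birc2, which lies between it and Birc3, while that of Birc3 was 0.18. Mmp10, a matrix metalloproteinase gene, fell from 62.7 and 69.8 to 36.6 and 44 (log2 fold change -0.69, adjusted p = 0.0147), and it did not pass without WT replicate 2 (adjusted p = 0.0786). Mmp12 had 5.78 and 7.25 in WT and 5.38 and 26.9 in the KO-labelled libraries, 1 library standing apart from the other 3 (log2 fold change 1.36, adjusted p = 0.173), and the log2 fold change was 2.08 without ICAM-1 KO replicate 1 (adjusted p = 3.32e-05) and -0.26 without ICAM-1 KO replicate 2 (adjusted p = 0.786). Dcun1d5 and Dync2h1 did not pass (adjusted p = 0.104 and 0.933).

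**Figure D4:**
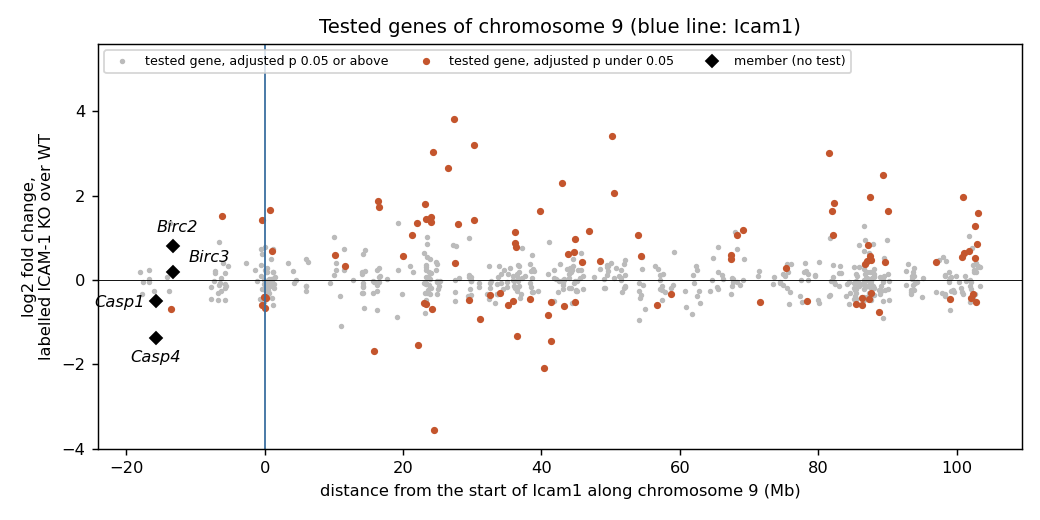
Log2 fold change (labelled ICAM-1 KO over WT) of the genes of chromosome 9 tested against the distance of their start from the start of Icam1 in Mb, in orange where the adjusted p was under 0.05, with the 4 members as black diamonds. Changed genes lie along the whole chromosome, and the point of Tmem123 is covered by that of Birc2.

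Casp4 had the largest absolute log2 fold change of the 9 members, and its pattern was compared with that of every gene tested by the Euclidean distance of the log2 normalized counts, centred over the 4 libraries. The closest genes were Gprasp2 on chromosome X (distance 0.132), Gadd45gip1 on chromosome 8 (0.193) and Palld on chromosome 8 (0.219). Gprasp2 had normalized counts of 55.6 and 55.8 in WT and 20.8 and 18.3 in the KO-labelled libraries. Gadd45gip1 had 41.2 and 47.1 against 15.1 and 15.6, and Palld 78.7 and 69 against 26.5 and 24.4. Over 4 libraries this likeness is little more than a shared gap between the groups. Gprasp2 overlaps Bhlhb9 on the same strand and can share reads with it.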

How the data were processed

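The members and the gene lists were chosen with earlier results of these data known. The authors made cDNA from RNA of sorted lung ILC2s with a low-input kit, sequenced it, mapped reads to mm10 (STAR, GENCODE M20) and estimated expected counts per gene in Partek. These deposited expected counts, of 22558 genes, were not normalized by the authors, and 61.1% lie within 0.01 of a whole number. The authors also deposited an upper quartile normalized signal for 18324 genes, equal to the count plus 1 times a factor per library. STAR's version differs between the paper's methods and the processing notes.

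Groups and replicate numbers came from sample titles. Rounded counts were fitted with edgeR 4.0.16 in R 4.3.3 (upper quartile factors over the genes kept, glmQLFit in its newer form, glmQLFTest). Genes were kept at a mean normalized count of 1 or more and a sum of 10 or more, which left 11711, and p-values were adjusted over these by the Benjamini-Hochberg method. SEs come from the log2 fold change and its F statistic. Each p rests on the spread between 2 pooled libraries per group, drawn toward a trend over all genes tested. This does not show the spread between animals. Alternatives were TMM factors, DESeq2 1.42.0, the older quasi-likelihood form, other filters on low counts, limma 3.58.1 on log2(normalized count + 1), a replicate block, leaving out each library and, for levels, the longest transcript.

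Named were the members, Icam1, pathway genes with an adjusted p under 0.05 or among the 2 most abundant of their list, up to 6 tested genes within 1 Mb of Casp4 and of Birc3, up to 2 markers a list and the 3 genes most like the member with the largest change. Casp9, Casp12, Xaf1, Nlrc4, Nlrp10, Nlrp12, Nlrp1a, Nlrp1b, Card9, Fadd, Cflar, Ripk1, Apaf1, Il7r, Klrg1, Ptprc, Il13, Il5, Il2ra, Epx, Prg2, Ccr3, Camp, Ly6g and the Naip genes were named after their values were seen. Lengths and transcripts are from GENCODE M21 and promoters from RefSeq (GRCm38.p6). Whether counting used strand is not given in the sources used here. Casp14, Birc7, Nlrp6 and Gsdmc were not analysed here, and some genes of these pathways are not reported here.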

Additional observations from a re-analysis of the deposited data

How the results depend on the processing

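Each SD rests on 2 libraries, and the lowest count of a member in any library was 312. Under the 7 alternatives other than leaving out a library, the log2 fold change of each member kept its direction and moved by less than the spread between replicates, from -1.42 to -1.32 for Casp4 and from 0.76 to 0.81 for Birc2. Il1b and Tnfrsf1a had an adjusted p under 0.05 in each of the 7 alternatives and without each library.

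With low genes left in (22158 tested), called genes were 273 higher (578 with the filter) and 39 lower (63), 2 pathway genes had an adjusted p under 0.05 on the higher side in place of 6, and 9 genes within 20 Mb of Icam1 did in place of 19. The adjusted p there was 0.107 for Mefv, 0.148 for Txnip, 0.137 for Ninj1, 0.128 for Cyld and 0.0564 for Mmp10. With the older form of the test it was 0.0559 for Mefv and 0.06 for Ninj1, and with limma 0.0512 for Ninj1. With DESeq2, 2 pathway genes were lower in place of 1. With each library left out in turn, called genes ranged from 338 to 596 higher and 48 to 80 lower, pathway genes from 2 to 5 higher and 0 to 2 lower (0 without WT replicate 2), and genes within 20 Mb of Icam1 from 8 to 20. The count of 338 was without WT replicate 1, and the lone library of a group was then taken to vary like the others. In the same fits the members' log2 fold changes ran from -0.65 to -0.33 for Casp1, from -0.29 to -0.15 for Casp8, from 0.13 to 0.24 for Birc3, from -0.05 to 0.56 for Xiap, from -0.58 to -0.19 for Nlrp3, from -0.20 to -0.01 for Gsdmd and from 0.14 to 0.26 for Pycard. With the longest transcript as length, the WT level per kb was 14.5 for Casp4, 58.3 for Casp8, 13.7 for Birc2, 62.9 for Birc3, 2.63 for Xiap and 41.9 for Gsdmd. The cause of these changes was not tested.

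The groups share replicate numbers, but the animals differ, and the main fit took the libraries as unpaired. Over genes, libraries of the same number did not deviate together (correlation -0.0582). This value cannot exclude a shared day of sorting or preparation, which the sample titles do not give. With a replicate block, called genes were 601 higher and 67 lower, and Ninj1 had an adjusted p of 0.0559.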
